A study of Mus musculus with 89 samples.

Results

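Lungs of OVA-challenged mice that received carboxylated copper oxide (CuO COOH) at dose 40 were compared with lungs of OVA-challenged mice that received the uncoated core material (CuO) at the same dose, 3 samples against 3, chosen by the labels for challenge, material and dose and making up 6 of the 89 samples of the series. All animals were female BALB/c mice of 6 to 8 weeks, sensitised with ovalbumin (OVA) in Alum. Those compared here were then challenged with OVA and received 40 μg/day of material by oropharyngeal aspiration on 4 consecutive days, and lung tissue was taken 24 h after the last dose. RNA samples were combined in pools of 2, and each pool was hybridised to a two-colour Agilent mouse array as an independent sample in its own dye. The samples set beside them shared the sensitisation and were 8 OVA-challenged controls and 7 PBS-challenged controls without material, 3 PBS-challenged samples of each material at dose 40, and 3 OVA-challenged samples of each material at dose 10. The dose was a mass of material, and the coated particles held less copper per mass than the core particles. In whole lung RNA, fewer cells of a type and less RNA per cell cannot be told apart.

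Type I interferons are released by infected or stressed cells. Interferons act through their receptors on transcription factors that switch on a shared set of antiviral genes in almost every cell type of the lung. Type I interferon acts largely on a DNA element with a repeated GAAA core, and interferon gamma on a palindromic element. The airways that conduct air to the alveoli are lined by ciliated cells, which carry axonemes moved by dynein motors, and by club and goblet cells, which secrete proteins and mucus. Basal cells, marked by keratins such as Krt5, are the progenitors beneath them and are largely restricted to the trachea and large airways in the mouse.

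Defining lung markers were present in all 6 samples. All 10 alveolar type 2 cell genes, 9 of 9 alveolar type 1 cell genes, 11 of 11 endothelial genes and 9 of 10 club cell genes were well above background in each of them, and none of 5 thymus genes was. The 6 samples lay on slides 1 to 3 and no 2 of them shared an array. CuO COOH sample 1, on slide 1, had the highest share of spots marked as outliers of the whole series, 7.75% against 1.11% to 5.59% in the other 5. Correlation between samples was 0.989 to 0.995 within CuO COOH, 0.989 to 0.996 within CuO and 0.987 to 0.996 between the materials.

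Of 22903 genes tested with limma, 73 differed between the materials (0.319%) by more than 0.58 on the log2 scale in either direction with a p under 0.05 after Benjamini-Hochberg adjustment. In CuO COOH lungs 58 genes were higher (0.253%) and 15 were lower (0.0655%). An unadjusted p under 0.05 (limma) was reached by 2493 genes (10.9%), the share that list counts at that p are to be set against. The higher genes included 8 of 14 interferon response genes tested, the chemokine Cxcl9 among them, the chemokine Ccl5, and the epithelial keratins Krt5 and Krt15. The lower genes included the secreted airway proteins Scgb3a2 and Tff2 and the ciliary dynein chains Dnah10 and Wdr63. All values below are log2 intensities with dye, slide and array position removed, and all differences are CuO COOH minus CuO on that log2 scale unless stated otherwise. Ratios given as at least a certain fold use the normalised values before that removal.

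The measured samples of the materials did not overlap in any of the 73 genes, 12 of which lacked a value in at least 1 of the 6 samples, a condition that 11.9% of all genes met in the higher and 12.1% in the lower direction. The 95% interval of the difference lay within 1 log2 unit of 0 on both sides for 98.1% of all genes and within 0.58 for 88.1%. The count depended on single libraries: 23 genes passed without CuO COOH sample 1, 112 without CuO COOH sample 3, 22 without CuO sample 1, 129 without CuO sample 2 and 38 without CuO sample 3. The share of higher genes among them, 79.5% over all samples, was 36.6% without CuO COOH sample 3 (41 higher and 71 lower) and 48.1% without CuO sample 2 (62 higher and 67 lower). Krt15, Vsig1, Slfn3, Anxa10, Ly6c2 and Serpinb5 stayed called whichever of the 6 samples was left out, and the other 67 genes lost their call in at least 1 of these fits. With each array as a fixed term in place of slide and position 1 gene passed, which was not one of the 73, and with median scaling 6 passed.

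Promoters of called interferon genes are shown because an exact match to the core of the type I interferon element occurs in some of them and not in others. Windows of 250 bases before to 50 bases after the start came from RefSeq on GRCm38.p6. The core of that element, GAAA followed by any 2 bases and GAAA again, was found on either strand in 1079 of 27025 genes with a window (3.99%). It was found in 14 of the 46 matched genes among the 58 that were higher in CuO COOH (30.4%), in 7 of the 11 matched members of the interferon list (63.6%) and in 0 of the 10 matched genes among the 15 that were lower. The palindrome TTCNNNGAA was found in 2582 of 27025 (9.55%), in 5 of 46 (10.9%), in 2 of 11 (18.2%) and in 1 of 10. A match describes the letters and not a used site, and a stretch without an exact match may still hold a near one. The 130 bases directly before the start are printed 5′ to 3′ in the direction of the gene, with matches to the GAAA repeat on either strand in capitals. Isg15 held 3 overlapping matches, Ifit1 held 2, Ifit3 and Gbp2 held 1 each, and Irf7 and Cxcl9 held none in this stretch. The called genes Ifi44, Ifit2, Oasl1 and Cmpk2, whose bases are not printed, also held none there. The stretches lie at chr4:156200819-156200948 on the minus strand for Isg15, chr19:34640759-34640888 on the plus strand for Ifit1, chr19:34583399-34583528 on the plus strand for Ifit3, chr3:142620533-142620662 on the plus strand for Gbp2, chr7:141266425-141266554 on the minus strand for Irf7 and chr5:92328080-92328209 on the minus strand for Cxcl9.
Isg15: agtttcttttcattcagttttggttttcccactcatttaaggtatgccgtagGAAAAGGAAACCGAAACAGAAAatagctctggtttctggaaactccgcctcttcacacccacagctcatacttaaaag
Ifit1: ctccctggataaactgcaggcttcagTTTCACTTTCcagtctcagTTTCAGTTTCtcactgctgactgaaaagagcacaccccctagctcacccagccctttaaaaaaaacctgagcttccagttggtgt
Ifit3: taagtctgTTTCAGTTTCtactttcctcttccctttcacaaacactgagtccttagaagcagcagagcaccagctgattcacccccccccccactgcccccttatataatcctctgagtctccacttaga
Gbp2: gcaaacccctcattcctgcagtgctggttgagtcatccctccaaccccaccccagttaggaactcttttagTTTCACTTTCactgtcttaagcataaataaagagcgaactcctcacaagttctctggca
Irf7: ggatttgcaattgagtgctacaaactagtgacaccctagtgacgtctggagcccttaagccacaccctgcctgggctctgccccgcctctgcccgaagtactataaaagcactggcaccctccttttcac
Cxcl9: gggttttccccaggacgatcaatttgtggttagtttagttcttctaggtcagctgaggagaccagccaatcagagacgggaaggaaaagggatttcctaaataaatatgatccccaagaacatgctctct

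Of the 14 interferon response genes tested, 8 were higher in CuO COOH lungs and 6 did not pass the test. All 14 differences were above 0, their median was 1.38, and the samples of the 2 materials did not overlap in any of the 14. Over all genes the median was 0.00 and 51.2% of differences were above 0. The mean level over the list was 10.96 to 11.50 in the CuO COOH samples, 9.62 to 9.98 in the CuO samples and 9.63 to 10.23 in the OVA controls. The list mean of the CuO samples thus lay at the level of the controls, while its member Cxcl9 was below them in CuO by 1.63.

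Ifi44, an interferon-induced protein of antiviral defence, showed the largest called rise. Its level was 10.77, 10.89 and 11.30 in the CuO COOH samples and 8.37, 9.21 and 8.97 in the CuO samples, against 8.70 to 9.63 in the OVA controls. The difference was 2.13 ± 0.44 (SE; limma, adjusted p = 0.0118), or 4.39-fold, and every CuO COOH sample lay above every control. Irf7, the transcription factor that amplifies type I interferon production, was at 13.54, 12.91 and 13.32 in CuO COOH and at 10.97, 11.45 and 11.46 in CuO. It differed by 1.97 ± 0.47 (SE; limma, adjusted p = 0.0364), and its CuO COOH samples also lay above all controls, which reached 11.83. Isg15, a ubiquitin-like protein conjugated to other proteins after interferon, was at 14.37, 14.12 and 14.77 in CuO COOH and at 12.43, 12.95 and 12.64 in CuO, a difference of 1.75 (adjusted p = 0.0364). Ifit1, which binds viral RNA, was at 10.28, 10.28 and 10.94 in CuO COOH and at 8.70, 8.95 and 9.0 in CuO, a difference of 1.62 (adjusted p = 0.0302). For both genes the groups were well apart and the CuO samples fell within the range of the controls.

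Ifit2 was higher by 1.29, Ifit3 by 1.12 and Gbp2, a guanylate-binding protein that attacks pathogen vacuoles, by 0.59. The remaining called member, Cxcl9, is described below. The members that did not pass included Cxcl10 at 1.92 (adjusted p = 0.125), Rsad2 at 1.47, Oas1a at 1.30, Usp18 at 1.29 and Oas2 at 0.93. Cxcl10, the ligand of CXCR3 on activated T cells, had a wide interval of 0.75 to 3.09. Other called genes outside the list that are known to be induced by interferon were Oasl1 at 1.95, the nucleic acid sensor Zbp1 at 1.59, Cmpk2 at 1.38 and the membrane tether Bst2 at 1.23. These genes outside the list were picked after their values were seen. Phf11a, Phf11b and Phf11c, Slfn3 and Slfn4, Ifi205 and Ifi214 were also called, and since each belongs to a family of near-identical genes, their probes may read relatives.

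**Figure D1:**
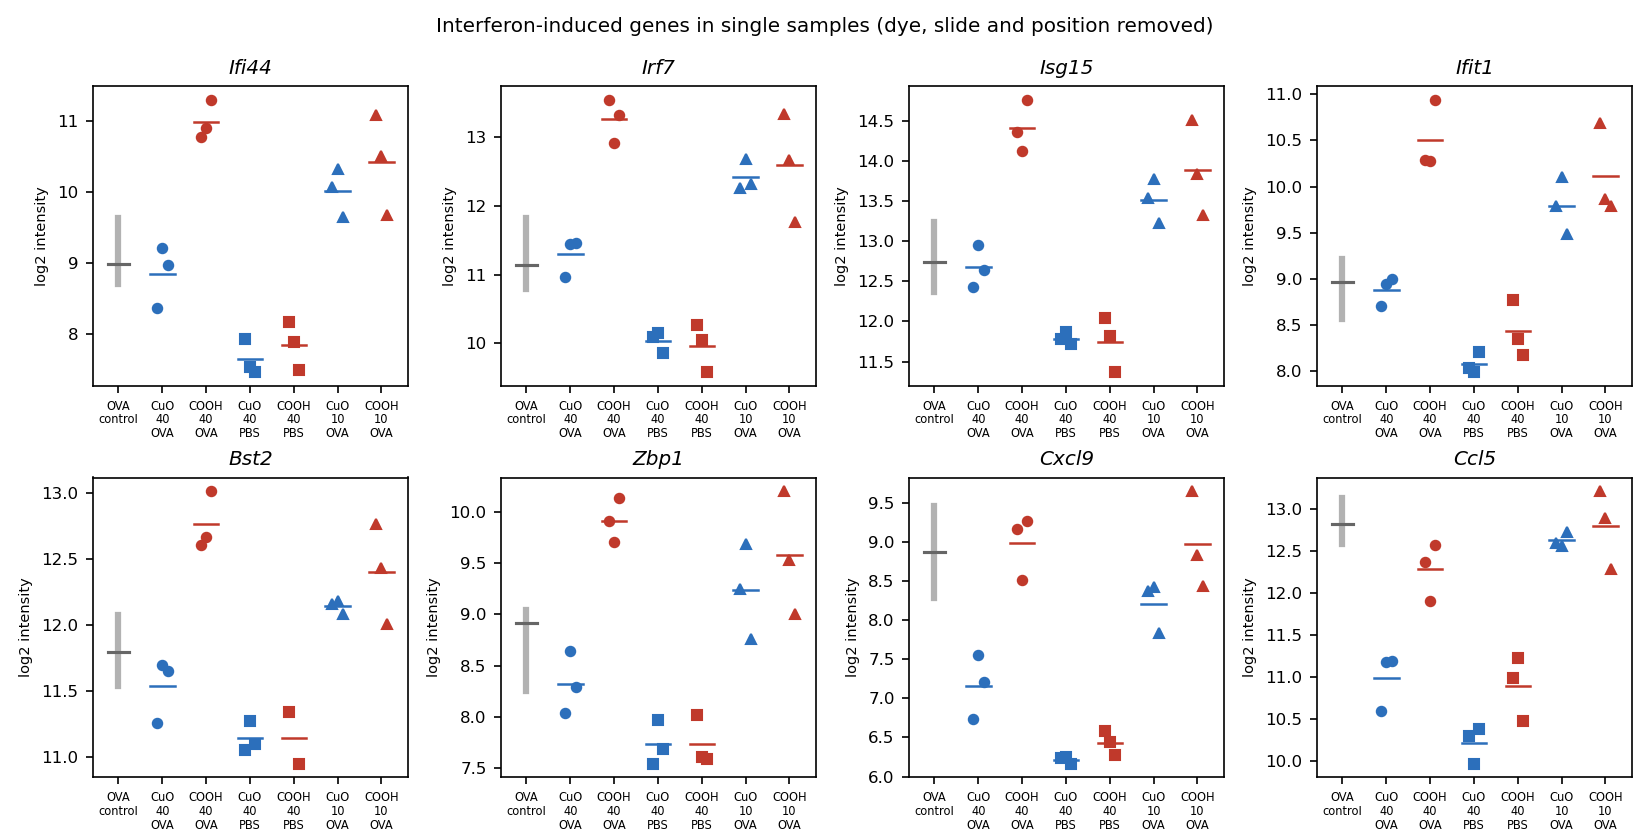
Log2 intensity of 8 called genes in single samples, with dye, slide and array position removed. Points are samples and short lines group means, for CuO in blue and CuO COOH in red at dose 40 with OVA challenge (circles), dose 40 with PBS challenge (squares) and dose 10 with OVA challenge (triangles), and the grey bar gives the range and median of the 8 OVA controls. At dose 40 with OVA every CuO COOH circle lies above every CuO circle in all 8 genes, while the PBS-challenged squares overlap except for Cxcl9 and Ccl5.

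The interferon count rested on several libraries. It was 0 without CuO sample 1, 1 without CuO COOH sample 1, 2 without CuO COOH sample 3 and 2 without CuO sample 3, and it was 0 with array as a fixed term, with median scaling and with slides 1 to 3 alone. The median difference of the list stayed between 1.03 and 1.54 in all settings tried. Ifi44 and Bst2 lost their call only without CuO sample 1 among the left-out samples, whereas Irf7, Isg15, Ifit1, Ifit2, Oasl1, Zbp1 and Cmpk2 lost it without CuO COOH sample 1 or 3 or without CuO sample 1 or 3, and Ifit3 and Gbp2 also without CuO sample 2.

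In contrast to Ifi44 or Irf7, several called genes were at or below the OVA controls in both groups, and lowest in CuO. Cxcl9, the interferon gamma-induced ligand of CXCR3, is a called member of the interferon list. It was at 9.16, 8.51 and 9.27 in CuO COOH and at 6.73, 7.56 and 7.20 in CuO, against 8.28 to 9.45 in the controls. All 3 CuO samples lay below every control and the CuO COOH samples lay among them. The materials differed by 1.82 ± 0.37 (SE; limma, adjusted p = 0.0101). Ccl5, a chemokine of T cells and monocytes, was at 12.37, 11.90 and 12.57 in CuO COOH and at 10.60, 11.18 and 11.19 in CuO, with 12.58 to 13.13 in the controls. It differed by 1.29 between the materials and was below the controls in both (by 0.54 and 1.83). Gzmb, the cytotoxic protease of T and NK cells, followed the same order with 8.66, 7.59 and 7.96, then 6.62, 7.27 and 6.80, and 8.45 to 9.06 in the controls. Chil4, a chitinase-like protein of the allergic lung, was at 10.54, 10.24 and 9.82 in CuO COOH, at 8.91, 8.41 and 8.30 in CuO and at 11.52 to 12.85 in the controls. It was higher by 1.66 (adjusted p = 0.0328), although its probe may read the related Chil3. Itln1, a lectin of goblet cells, passed with 1.68, but only CuO COOH sample 1 was measured in that group. The call was lost for Cxcl9 without CuO COOH sample 1 or CuO sample 1, for Ccl5 without CuO COOH sample 1 or 3 or CuO sample 1, for Gzmb without any of these or CuO sample 3, and for Chil4 without CuO COOH sample 1 or 2 or CuO sample 2 or 3.

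Against the 8 OVA controls, by 95% intervals, 30 of the 58 higher genes were above the controls in CuO COOH and not different from 0 in CuO, 8 were above in both, 7 were below in CuO with an interval that held 0 in CuO COOH, 7 were below in both, and 6 were above in CuO COOH and below in CuO. Ido1, the interferon-induced enzyme of tryptophan breakdown, and Batf2 were among the genes that were below the controls only in CuO, with 0.13 and -0.77 for Ido1 and 0.00 and -0.69 for Batf2 in CuO COOH and CuO. The difference between those 2 values is the material difference itself, 0.89 for Ido1 and 0.69 for Batf2. Of the 15 lower genes, 6 were above the controls in CuO with an interval that held 0 in CuO COOH. Another 4 were below in CuO COOH with an interval that held 0 in CuO, 4 were below in CuO COOH and above in CuO, and 1 was above in both. Both materials share the same controls, so these sets are a description.

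**Figure D2:**
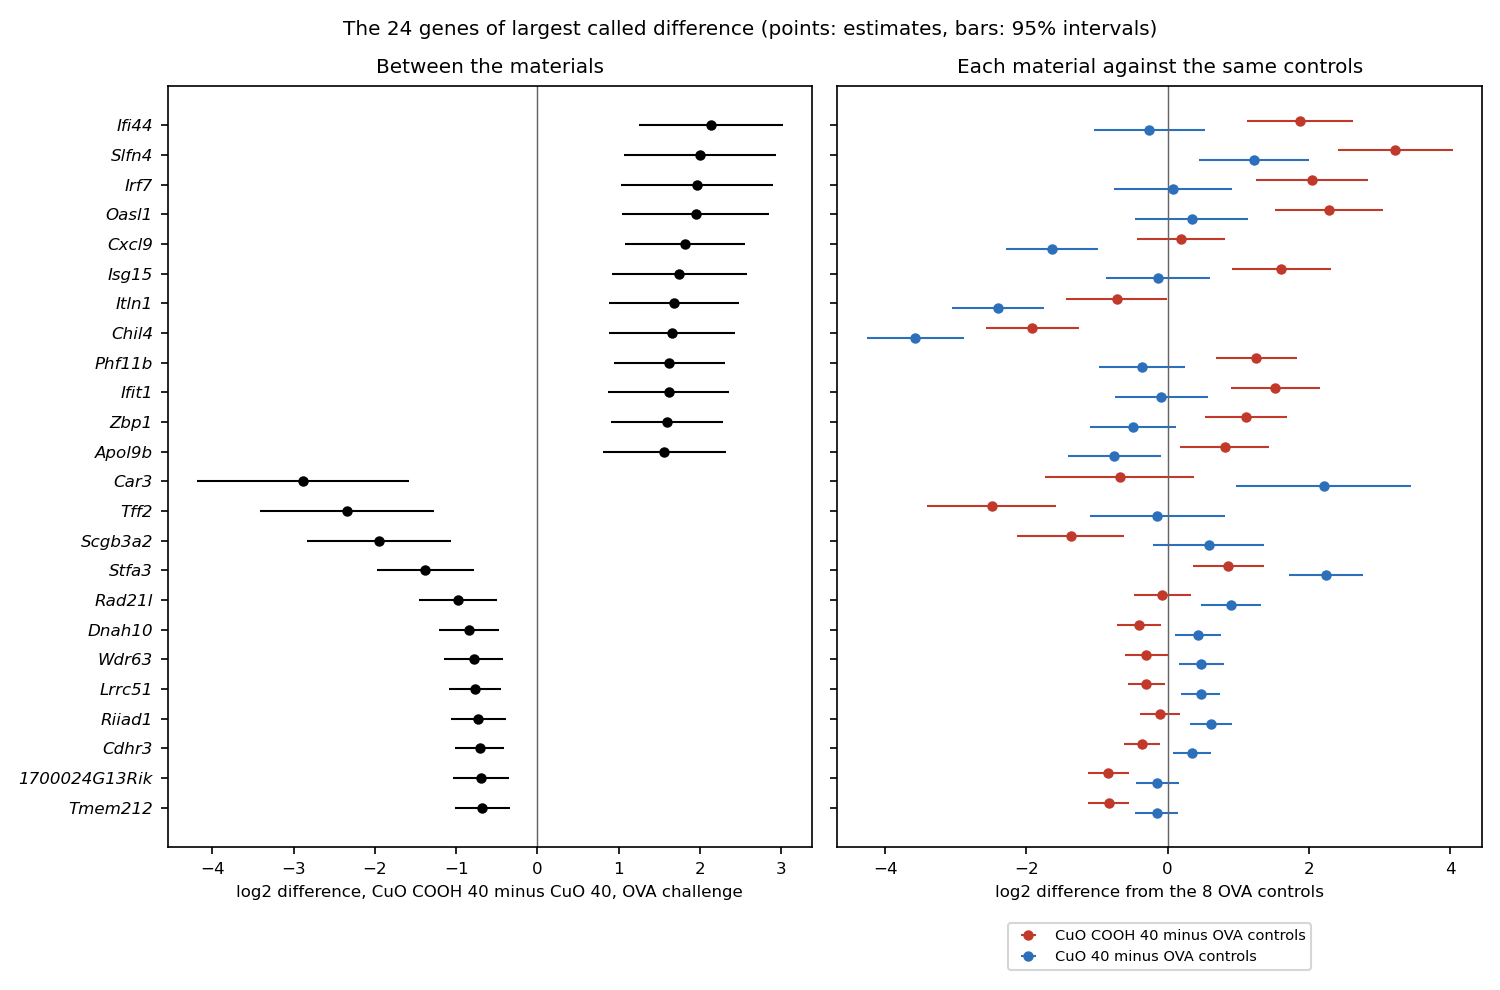
The 12 largest called rises and the 12 largest called falls, as log2 differences with 95% intervals. The left panel gives CuO COOH minus CuO at dose 40 with OVA challenge, and the right panel gives each material minus the same 8 OVA controls, CuO COOH in red and CuO in blue. Ifi44, Irf7, Oasl1, Isg15 and Ifit1 are above the controls in CuO COOH with CuO near 0, whereas Cxcl9, Itln1 and Chil4 are lowest in CuO.

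Some called genes are known from basal and other epithelia. Krt15, a keratin of basal and stratified epithelial cells, was at 7.63, 7.12 and 7.91 in CuO COOH and at 5.97, 6.09 and 6.42 in CuO, against 6.00 to 6.50 in the controls. All 3 CuO COOH samples lay above every control and the CuO samples lay at the controls. The difference was 1.39 ± 0.24 (SE; limma, adjusted p = 0.00141), and it passed in all settings tried other than array as a fixed term and the 6 samples alone. Krt5, the defining keratin of basal cells, was at 6.97, 6.39 and 6.84 in CuO COOH and at 5.82, 5.75 and 6.00 in CuO, a difference of 0.88 (adjusted p = 0.0364). Krt15 and Krt5 were well above background in 3 of 3 CuO COOH samples and in 2 of 3 CuO samples. Part of the CuO signal behind both differences was therefore dim. Ly6d, a surface protein of squamous epithelium that is also found on early B cells, was at 9.59, 9.29 and 8.99 in CuO COOH and at 7.93, 8.04 and 7.96 in CuO, a difference of 1.32 (adjusted p = 0.0367). Krt5 lost its call when any sample but CuO COOH sample 2 was left out, and Ly6d when any sample but CuO COOH sample 3 was.

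Serpinb5, the serpin maspin of basal and squamous epithelial cells, was at 6.31, 6.31 and 6.33 in CuO COOH and at 5.68, 5.72 and 5.49 in CuO, a difference of 0.69 (adjusted p = 0.000764). It was well above background in 2 of 3 CuO COOH samples and in 0 of 3 CuO samples, so the ratio is given as at least 1.39-fold. Anxa10, a calcium-dependent membrane-binding protein of gastric and urothelial epithelium, had the smallest adjusted p of the comparison, 0.000129. It was at 6.23, 6.65 and 6.57 in CuO COOH and at 5.67, 5.74 and 5.47 in CuO, and since it was not well above background in any CuO sample the ratio is at least 1.60-fold. Vsig1, a junction protein of gastric epithelium, was higher by 1.06 (adjusted p = 0.00155), with 7.34 to 7.61 in CuO COOH and 6.34 to 6.51 in CuO.

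A list of 16 basal and squamous genes was written after these values had been seen and is only counted. Krt15, Krt5, Ly6d and Serpinb5 passed, 12 did not, 14 of 16 were above 0 and the median was 0.28. Trp63, the transcription factor that defines basal cells, differed by 0.05, with an interval of -0.13 to 0.22, and Krt14 by 0.50 (adjusted p = 0.135). The mean level of the 16 genes was 6.83 to 6.97 in CuO COOH, 6.43 to 6.49 in CuO and 6.44 to 6.61 in the controls, and 8 of the 16 were well above background in all 6 samples.

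Secreted airway proteins were among the called falls. Scgb3a2, a secretoglobin of club cells, was at 13.25, 12.97 and 14.44 in CuO COOH and at 15.13, 15.12 and 16.28 in CuO, with 13.90 to 16.11 in the controls. CuO COOH samples 1 and 2 lay below every control, while sample 3 lay among them. The fall was -1.95 ± 0.44 (SE; limma, adjusted p = 0.0285) and was no longer called without CuO COOH sample 1 or 2 or without CuO sample 3. Tff2, a trefoil peptide secreted with mucus that takes part in epithelial repair, was at 8.15, 7.72 and 9.43 in CuO COOH and at 10.65, 10.33 and 11.35 in CuO, against 10.54 to 11.48 in the controls. It differed by -2.34 ± 0.54 (SE; limma, adjusted p = 0.0302) and all 3 CuO COOH samples lay below every control. The call was lost without CuO COOH sample 1 or 2 or CuO sample 1 or 3. In both genes sample 3 was the highest of its group in either material.

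Among 10 club cell genes Scgb3a2 was the only one called. The median of these 10 was -0.28, but -0.70 without CuO COOH sample 3, -0.71 without CuO sample 2 and -0.10 without CuO sample 3, and it was -0.08 with median scaling, -0.04 with array as a fixed term and 0.02 after ComBat, a batch correction applied to the values for dye and array. Scgb1a1, the most abundant club cell secretion, differed by 0.03 with an interval of -0.49 to 0.54. Scgb3a1 differed by -1.50 (limma, adjusted p = 0.235). Among 12 goblet cell genes Itln1 was higher and Tff2 was lower, and the mucin Muc5ac differed by -0.75 with an interval of -1.95 to 0.45. Of 10 alveolar type 2 cell genes, which make surfactant, 0 passed and 6 had an unadjusted p under 0.05 (limma). All 10 were below 0, with a median of -0.37, and the nearest to the threshold were Napsa at -0.48 and Sftpa1 at -0.45 (both adjusted p = 0.0536). With array as a fixed term the median was -0.18 and 2 of the 10 were above 0, with ComBat it was -0.24 with 2 of 9 above 0, and with median scaling it was -0.22.

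Several other genes called lower in CuO COOH than in CuO were genes of motile cilia. Dnah10, a heavy chain of the axonemal dynein motor, was at 8.25, 8.30 and 8.86 in CuO COOH and at 9.21, 9.19 and 9.53 in CuO, with 8.66 to 9.24 in the controls. It differed by -0.84 ± 0.18 (SE; limma, adjusted p = 0.0213), with CuO COOH below the controls by 0.40 and CuO above them by 0.44. Wdr63, an intermediate chain of the inner dynein arm, was at 8.06, 8.16 and 8.73 in CuO COOH and at 9.08, 9.02 and 9.20 in CuO, a difference of -0.78 (adjusted p = 0.0302). Cdhr3, a cadherin-related protein of ciliated cells and the receptor of rhinovirus C, differed by -0.71 and Armc3 by -0.68. Dnah10 lost its call without CuO COOH sample 1 or 2 or CuO sample 3, Wdr63 without these or CuO sample 1, Cdhr3 without CuO COOH sample 1 or CuO sample 1, and Armc3 without any sample but CuO COOH sample 3.

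Of 10 ciliated cell genes on the list, 0 passed and 8 had an unadjusted p under 0.05 (limma), against 10.9% of all genes. All 10 were below 0 and the median was -0.43, from -0.11 for Foxj1, the transcription factor of ciliogenesis, to -0.71 for Dynlrb2. Without CuO COOH sample 3, 2 of the 10 passed. Of 15 axonemal dynein genes, counted after their values were seen, Dnah10 and Wdr63 passed, 14 were below 0 and the median was -0.37. The mean level of the ciliated list was 9.29 to 9.73 in CuO COOH, 9.77 to 9.98 in CuO and 9.40 to 9.80 in the controls. Against the controls the median over the list was -0.03 in CuO COOH and 0.44 in CuO. With array as a fixed term and with ComBat the median difference between the materials was -0.18 and 1 of the 10 was above 0.

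**Figure D3:**
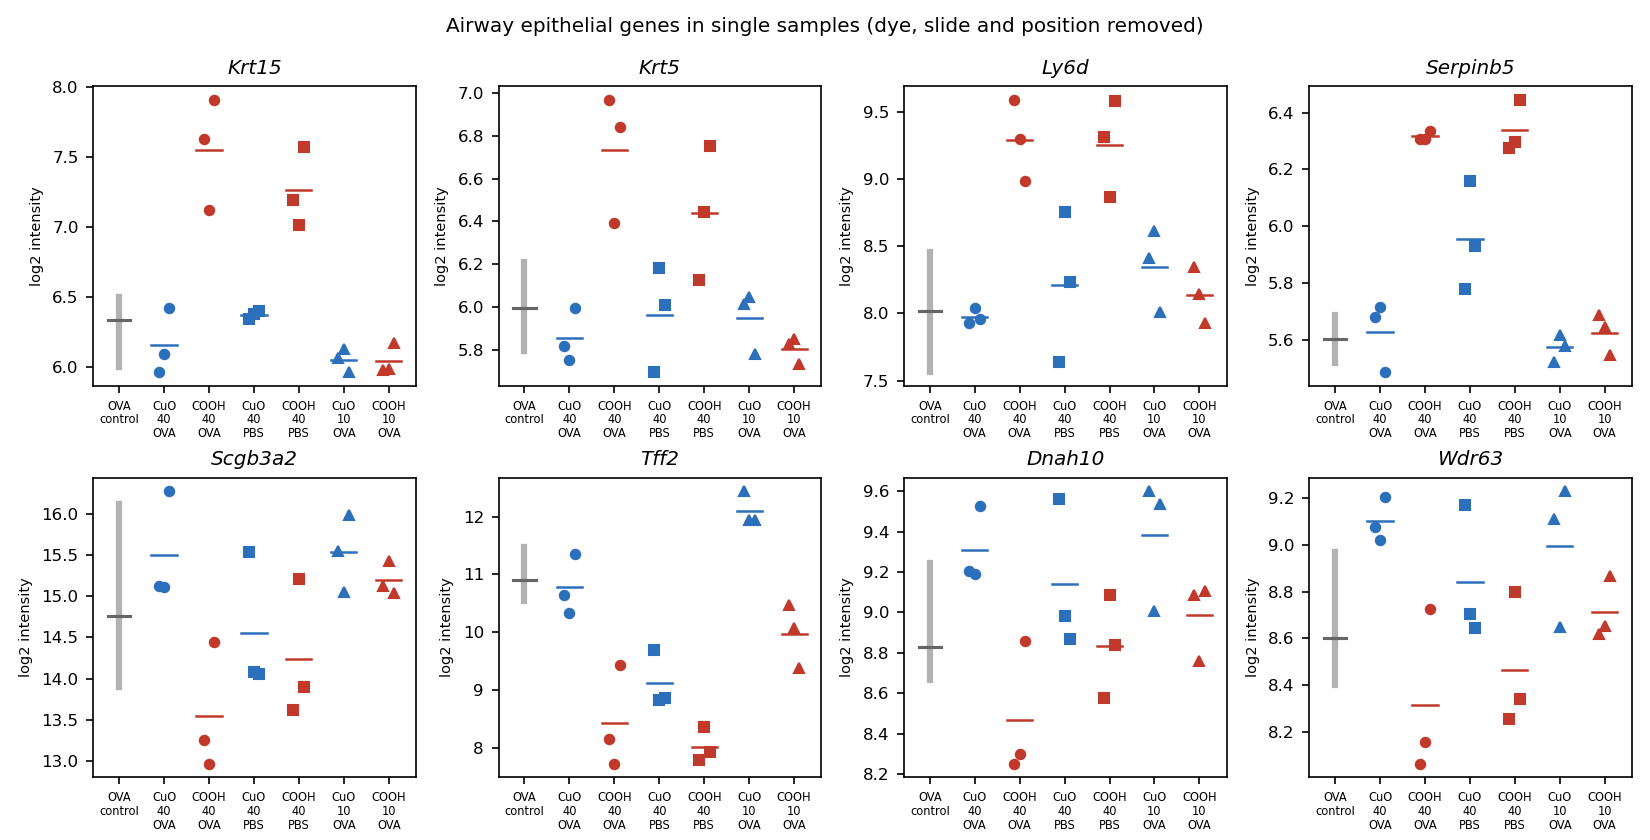
Log2 intensity of 8 airway epithelial genes in single samples, with dye, slide and array position removed. Symbols are as for the plot of interferon genes, with CuO in blue, CuO COOH in red, circles for dose 40 with OVA, squares for dose 40 with PBS, triangles for dose 10 with OVA and the grey bar for the range and median of 8 OVA controls. Krt15 is high in CuO COOH at dose 40 under both challenges and near the controls at dose 10. Scgb3a2 is low in CuO COOH at dose 40 with OVA, while the Tff2 mean is lower in CuO COOH than in CuO in every setting shown.

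Stfa3, a stefin A protease inhibitor made by neutrophils, was lower in CuO COOH than in CuO, and above the controls in both (by 0.86 and 2.24). It was at 7.00, 6.58 and 6.83 in CuO COOH and at 8.24, 8.21 and 8.08 in CuO, against 5.80 to 6.17 in the controls. The difference was -1.38 (limma, adjusted p = 0.0163), which was no longer called without CuO COOH sample 2 or CuO sample 1. Stfa1 at -1.42, Stfa2 at -1.35 and Stfa2l1 at -1.01 did not pass, and the probes of these close relatives may read each other. Of 17 neutrophil genes 0 passed, 4 had an unadjusted p under 0.05 (limma), the median was -0.13, and S100a9 differed by -1.14. Their median was -0.04 without CuO COOH sample 2, -0.05 without CuO sample 1, -0.21 without CuO sample 2, -0.30 without CuO COOH sample 1 and -0.35 without CuO sample 3. It was -0.71 with array as a fixed term, where 0 passed, and -0.70 with ComBat, where 11 of 15 were lower. Car3, a carbonic anhydrase of adipose tissue and muscle, had the largest fall, -2.89, but rested on 2 samples in each group, at 7.64 and 7.77 in CuO COOH and 10.07 and 11.12 in CuO, and was lost without any of them except CuO sample 1. No gene of the adipose list (6 tested) or the skeletal muscle list (7 tested) was called. Rad21l, a meiotic cohesin, was called at -0.97 through CuO sample 1 alone, which was at 7.68, and differed by -0.21 without it. It was well above background in 0 of 3 CuO COOH samples and 1 of 3 CuO samples. The bound of 1.32-fold therefore rests on 1 pool and describes no difference between the groups.

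Tnc, the matrix glycoprotein tenascin C of wounds, was the only called gene among 15 extracellular matrix genes. It was at 8.83, 8.86 and 9.29 in CuO COOH, at 8.13, 8.46 and 8.00 in CuO and at 6.64 to 7.24 in the controls, so both materials lay above the controls by 2.04 and 1.25. The difference of 0.80 was lost without any sample but CuO sample 2. Of the 15 matrix genes, 7 had an unadjusted p under 0.05 (limma), against 10.9% of all genes. Their median difference was 0.28 and 11 were above 0. With array as a fixed term the median was -0.04, and with ComBat it was -0.13 over 13 tested. Gpx2, an epithelial glutathione peroxidase, was the only one of 16 Nrf2 antioxidant targets to pass, with 12.57, 12.40 and 12.57 in CuO COOH against 11.91, 11.58 and 11.55 in CuO, a difference of 0.83 that was lost without CuO COOH sample 1 or CuO sample 3. The median of these 16 was 0.04. No gene of the metal handling list was called among 19, with a median of -0.04 and 2 at an unadjusted p under 0.05 (limma). Mt1, the metallothionein that binds copper and zinc, was at 11.57, 11.57 and 11.24 in CuO COOH, at 12.13, 12.26 and 12.11 in CuO and at 10.21 to 10.89 in the controls. Its difference of -0.71 had an adjusted p of 0.124 (limma), with an interval of -1.14 to -0.28.

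Monocyte chemokines and their receptors had 1 called gene of 10, Ccl5, with all 10 differences above 0 and a median of 0.82. With median scaling 9 of 10 were above 0, and with array as a fixed term 2 of 10 were, with a median of -0.07. Of 18 mitotic genes 0 passed, 2 had an unadjusted p under 0.05 (limma), all 18 were above 0 and the median was 0.29, which became -0.01 with array as a fixed term. The 12 lytic cell death genes had 1 called gene, Zbp1, and a median of 0.18. For the 39 proteasome subunits (median 0.05), 36 respiratory complex I subunits (-0.02), 11 heat shock proteins (0.17) and 13 unfolded protein response genes (0.22) the call count was 0, with 7, 1, 1 and 6 genes at an unadjusted p under 0.05 (limma). In all, 11 of 46 lists held a called gene. Beside those given, they were the alveolar macrophage list through Krt79 (1.37), the NK and cytotoxic list through Gzmb (1.17), the chitinase list through Chil4 and the mesothelial list through the uroplakin Upk1b (0.65). The medians of the 35 lists without a called gene ran from -0.43 to 0.31.

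Of 11 cytokine, chemokine and mucin genes that the study names, 0 passed and 3 had an unadjusted p under 0.05 (limma). The monocyte chemokine Ccl2 differed by 1.07 with an interval of 0.03 to 2.12, Ccl7 by 1.07, the eotaxins Ccl24 by 0.99 and Ccl11 by 0.77, Il4 by 0.41, Ccl17 by 0.31, the Th2 cytokine Il13 by 0.18, Tnf by 0.03, Il33 by -0.21, Muc5b by -0.44 and Muc5ac by -0.75. Ccl11 lay below the controls in both materials, by 0.58 in CuO COOH and 1.35 in CuO. The intervals of Ccl2, Ccl7, Ccl24, Ccl11, Muc5ac and Muc5b reached beyond 1 log2 unit. Eosinophil genes and Th2 genes had 0 called genes of 12 and of 15 tested. At an unadjusted p under 0.05 (limma) there were 4 and 2, against 10.9% of all genes.

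**Figure D4:**
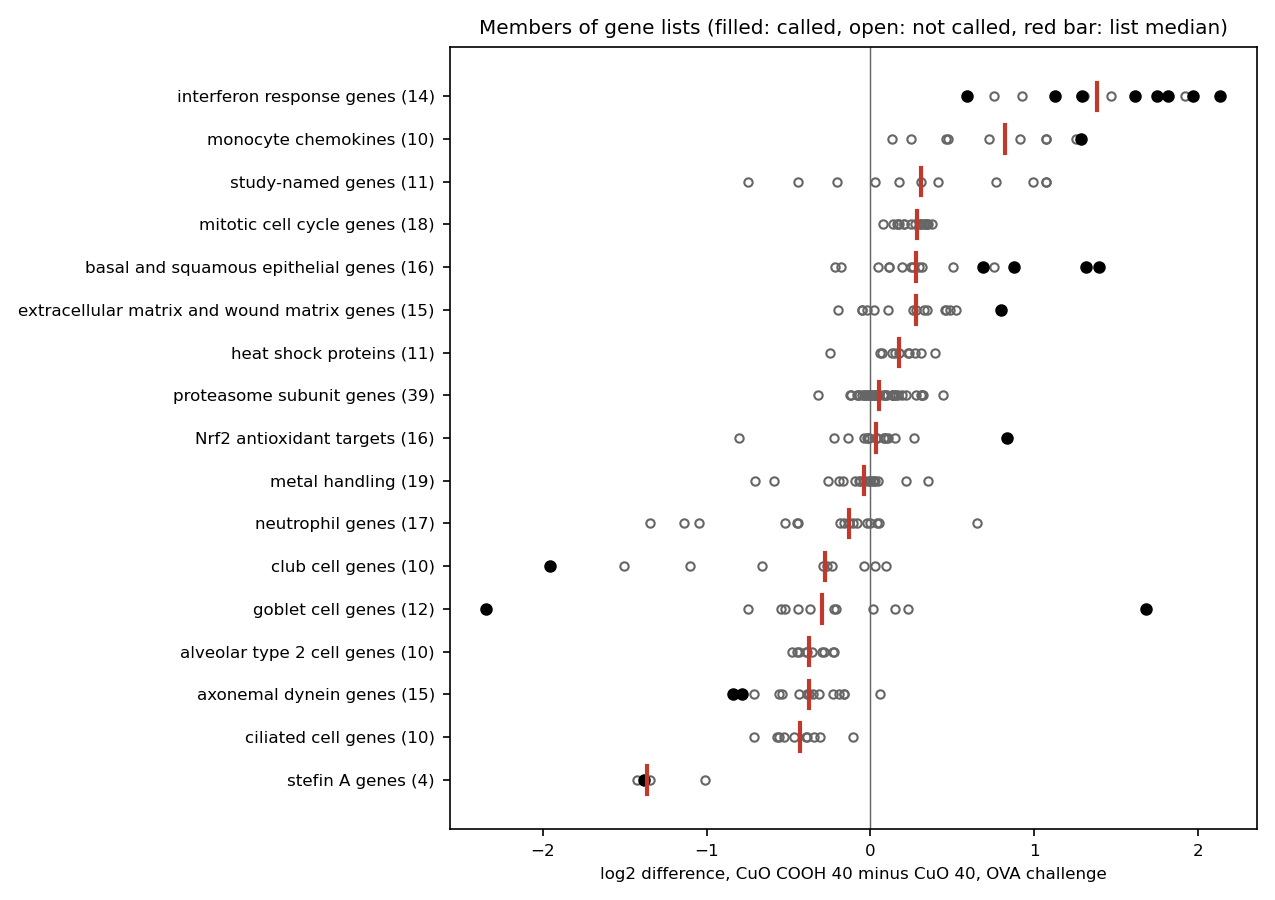
Differences between CuO COOH and CuO at dose 40 with OVA challenge, on a log2 scale, for the members of 17 gene lists with the number tested in brackets. Filled points were called, open points were not, red bars are list medians, and the lists of basal and squamous, axonemal dynein and stefin A genes were written after values were seen. The interferon list stands at a median of 1.38 and the ciliated list at -0.43, with all their members on one side of 0.

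Within slides, each material could be compared in the same dye by 1 pair on slide 1 (CuO COOH sample 1 and CuO sample 1, Cy3) and 1 pair on slide 2 (CuO COOH sample 3 and CuO sample 2, Cy5). The called genes kept their sign in 71 of 71 measured in the first pair and in 67 of 68 in the second, the exception being Rad21l. Both pairs agreed in sign in 65 of 66 called genes measured in both, against 50.7% of all genes. These pairs are among the samples that made the calls and are no independent support.

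The same materials were set side by side under PBS challenge at dose 40 and under OVA challenge at dose 10, and the difference of the differences was tested with limma. For the 14 interferon genes the median difference was 0.13 under PBS at dose 40 and 0.19 at dose 10, against 1.38 under OVA at dose 40. No interferon gene passed the test of either difference, with a median of 1.27 between challenges and 1.16 between doses. Irf7 differed by -0.08 (95% interval -0.94 to 0.79) under PBS and by 0.17 (-0.73 to 1.06) at dose 10, and the test between challenges gave 2.04 ± 0.65 (SE; limma, adjusted p = 0.410). At dose 10 Irf7 was at 13.34, 12.66 and 11.77 in CuO COOH 10 and at 12.26, 12.68 and 12.32 in CuO 10, so all 3 CuO samples at dose 10 lay above all 3 CuO samples at dose 40 and above every OVA control. Under PBS it was at 9.58 to 10.26 in CuO COOH and at 9.86 to 10.15 in CuO.

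Krt15 was at 7.19, 7.02 and 7.58 in CuO COOH 40 and 6.34, 6.38 and 6.4 in CuO 40 under PBS, and the groups did not overlap there either. Under PBS it was well above background in 2 of 3 CuO 40 samples. The difference was 0.89 (0.45 to 1.33) under PBS and -0.01 (-0.46 to 0.45) at dose 10. Ly6d differed by 1.04 (0.46 to 1.63) and Serpinb5 by 0.38 (0.18 to 0.59) under PBS, and Ly6d by -0.21 (-0.81 to 0.39) at dose 10, where Serpinb5 was not well above background in any sample. Anxa10 was at 6.83, 7.14 and 6.86 in CuO COOH and at 5.77, 5.70 and 5.83 in CuO under PBS, where no CuO sample was well above background and the ratio was at least 1.98-fold. At dose 10 all 6 samples lay at 5.49 to 5.69, none of them well above background, so no ratio is given there. Its change with dose passed in limma (adjusted p = 0.0327), but the fitted change is no measured size because 3 of the 4 groups were not well above background in any sample. The change with dose of Krt15, 1.40 ± 0.32 (SE), did not pass (limma, adjusted p = 0.129). Tff2 differed by -1.11 (-2.11 to -0.11) under PBS and by -2.13 (-3.15 to -1.11) at dose 10, and Scgb3a2 by -0.31 and -0.33, with both intervals holding 0. Stfa3 differed by -1.36 (-1.91 to -0.81) under PBS and by -0.10 at dose 10.

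Over all genes, 1 of 22891 passed the test between challenges (0.00437%), with 1985 at an unadjusted p under 0.05 (8.67%), and 3 of 22831 passed the test between doses (0.0131%), with 1163 at an unadjusted p under 0.05 (5.09%). The gene of the first test was Defb28. Those of the second were Gsto1, Anxa10 and Gm34484. A material difference past the threshold in one setting and not in another is therefore not shown to differ between them for the other genes.

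**Figure D5:**
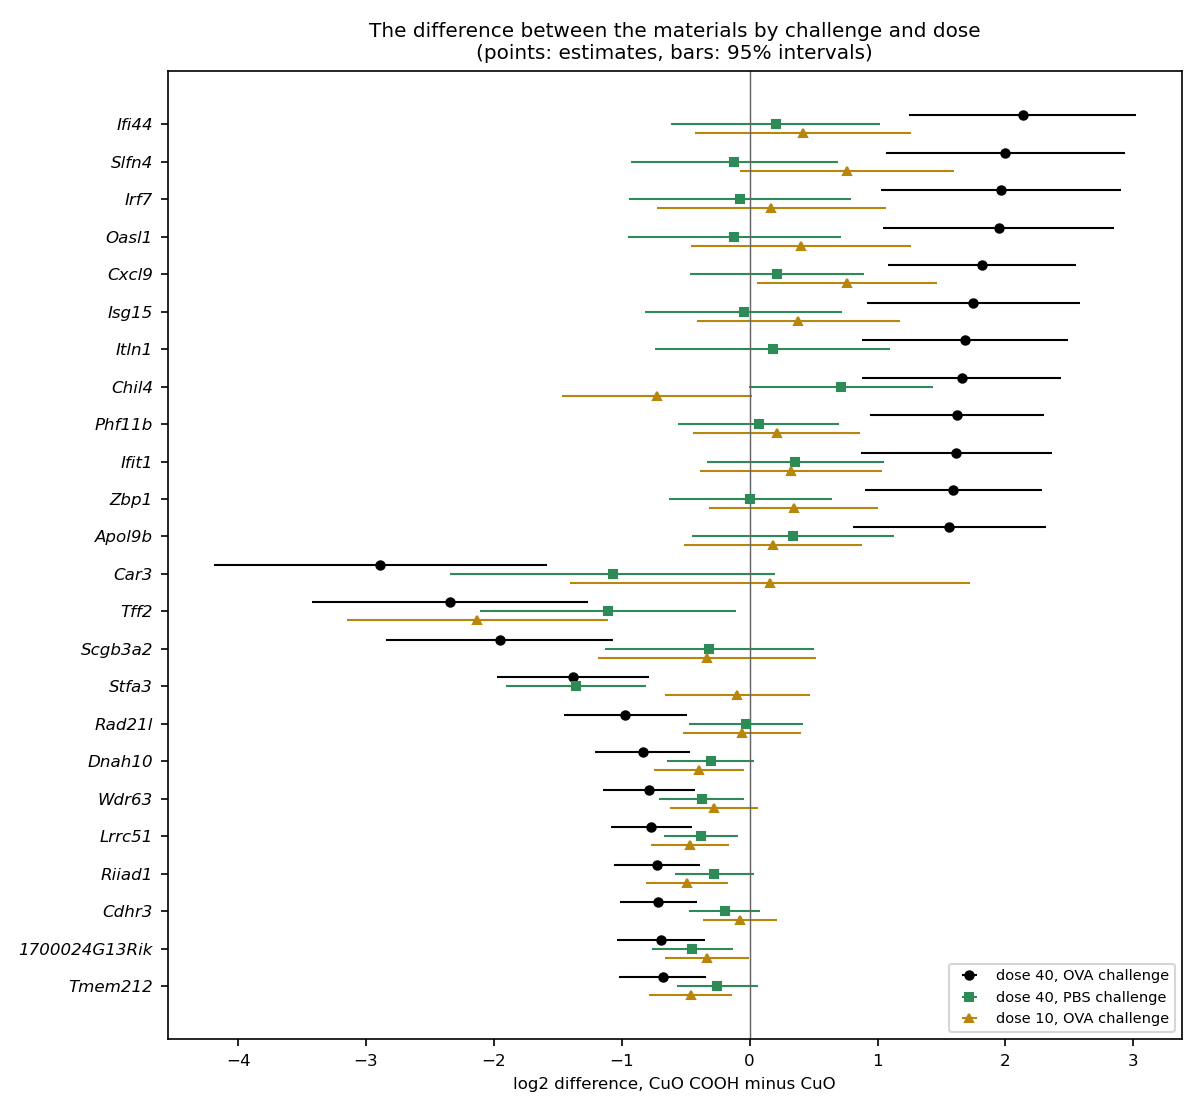
Log2 difference of CuO COOH minus CuO with 95% intervals for the 12 largest called rises and the 12 largest called falls, at dose 40 with OVA (black), dose 40 with PBS (green) and dose 10 with OVA (ochre). The interferon genes lie near 0 under PBS, Stfa3 is low at dose 40 under both challenges, and Tff2 is low in all 3 settings. Itln1 has no value at dose 10.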

How the data were processed

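The deposited scanner files hold Agilent Feature Extraction intensities of two-colour arrays, 62976 spots each, and per the file headers the software was version 12.0.2.2. The median foreground intensity of each sample's own dye was used, without background subtraction. Spots with outlier marks were set to missing and 3671 control spots were left out, and log2 values were quantile normalised over 89 samples. Genes with several probes (7899 of 22911) were averaged as deviations from each probe's own mean, so that a missing probe did not shift the gene. The authors' deposited value table, quantile-normalised log2 intensities from the same scans, served as an alternative. Authors' comparisons were not used.

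limma 3.58.1 in R 4.3.3 fitted 26 groups with dye, slide (6) and array position (8) as fixed terms, with Benjamini-Hochberg adjustment over all genes tested. Calls needed an adjusted p under 0.05 together with a log2 difference beyond 0.58 in either direction. Differences of differences were contrasts of the same fit. The number of arrays limits the precision, and the median 95% half-width was 0.243. A probe not above background in all samples of a group has only a bound there, so the ratio is taken against the higher of that probe's own level and the lowest signal well above background on each array. These ratios used normalised values from which dye, slide and position had not been removed. Named genes were the 12 largest called rises and the 12 largest called falls, the study-named genes, and called members of 46 lists or otherwise their 2 members of largest difference, named here where the text describes that list. Other names were chosen after their values were seen. The comparison, its lists and its genes were chosen with earlier results of these data known. Alternatives covered background, scaling, probes, dim spots, dye, array and slide terms, ComBat, the replicate number and each left-out sample. Nothing in the sources used here ties a replicate to a culture or batch beyond its pool of animals, so p-values measure the spread between pools. Programs were tested on simulated data.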

Additional observations from a re-analysis of the deposited data

Results flagged for a closer look

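In 2 of the genes reported, the lowest of the 7 PBS controls lay apart from the other 6. For 1700024G13Rik, a called gene of the lower set, the lowest PBS control was at 8.12 and the next at 8.36, and for Muc5b the lowest was at 9.54 and the next at 10.2. Chance alone marks about 1 in 20 groups in this way, and neither value enters the comparison of the materials.

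Defb28, a beta-defensin, was the gene whose material difference changed with challenge (limma, adjusted p = 0.00457). Its fitted change of -1.63 is no measured size. It was not well above background in any of the 6 OVA-challenged samples or in any PBS-challenged CuO sample. In the PBS-challenged CuO COOH group 1 of 3 samples was measured, at 7.15. Between doses 3 genes changed, each with an adjusted p of 0.0327 in limma. Gsto1, a glutathione transferase of the omega class, differed by 0.64 at dose 40 and by -0.52 at dose 10, a change of 1.16. Anxa10 had a fitted change of 0.86, which is no measured size, since it was not well above background in either material at dose 10 or in CuO at dose 40. Gm34484 had a fitted change of 1.82, also no measured size, since it was not well above background in CuO COOH at dose 10 or in CuO at dose 40. In the CuO 10 group only sample 2 was measured, at 7.37.

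Probes without a gene name were left out of the gene-level results. In a fit over all probes, 30 of the 23600 such probes tested were called between CuO COOH and CuO at dose 40 with OVA, 20 higher and 10 lower, beside 89 of 32975 probes with a gene.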

How the results depend on the processing

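The count of 73 genes became 6 with median scaling (4 higher and 2 lower, 66.7% higher against 79.5%), 1 with dye and array fixed, 131 with dye and slide only, 371 with ComBat for dye and array (181 higher and 190 lower), 4 with slides 1 to 3 only and 17 with the 6 samples alone, and ran from 22 to 129 over the fits that dropped 1 sample. The causes were not tested. In the other settings, the replicate block aside, it was 58 to 104. The count between challenges, 1, became 0 with median scaling, the deposited value table, dim probes removed and outlier spots kept, 2 with dye and array fixed and with the plain mean of probes, 1177 with ComBat, and 0 to 3 with a sample left out. The count between doses, 3, became 0 with loess, median scaling, dim probes removed, the deposited value table, the highest-mean probe, dye and array fixed, the plain mean of probes and outlier spots kept, 1 with slides 1 to 3 only, 1533 with ComBat, and 0 to 24 with a sample left out. The plain mean and the kept outlier spots were chosen after seeing the data.

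Deviations of same-numbered samples from their group means correlated at r = 0.118, -0.050 and 0.188 for numbers 1 to 3. Those of differently numbered samples correlated at -0.293 to 0.163. With 3 samples per material these values cannot decide whether the numbers pair the samples. With the replicate number as a block the counts were 122 between materials (90 higher and 32 lower), 1 between challenges and 5 between doses.

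The 73 called genes kept their sign in every setting in which they were tested. Genes below the threshold that turned sign were Il13 (-0.046), Ccl2 (-0.042), Ccl7 (-0.73) and Tnf (-0.26) with dye and array fixed, and Il13 (-0.045), Ccl2 (-0.18), Ccl7 (-0.71) and Tnf (-0.24) with ComBat. Tnf was at -0.061 with array as a random term, at -0.063 with dye only, the replicate block and the 6 samples alone, and at -0.28 to 0.31 without single samples (-0.28 without CuO COOH sample 1 and -0.14 without CuO sample 3). Scgb1a1 was at -0.016 in the deposited value table and with outlier spots kept, at -0.033 with dye and slide only, and at -0.21 to 0.41 without single samples. Trp63 was at -0.15 with dim probes left out and with the highest-mean probe and at -0.021 with slides 1 to 3 only, and Foxj1 was at -0.32 to 0.013 without single samples, the highest without CuO COOH sample 2. Median foreground was 2.86 to 4.02 times background in the 6 samples, which limits dim genes.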
